A study of Aspergillus nidulans with 8 samples.

Results

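The genes described here are 34 backbone genes of secondary metabolism in the filamentous fungus Aspergillus nidulans. The main synthase genes of the better known clusters of this series, such as those for sterigmatocystin or penicillin, are not among them. AN6444 does lie in the region of such a cluster, that of cichorine. The 34 genes were taken by locus tag from a list of 36 polyketide synthase, peptide synthetase and synthetase-like genes. AN7022 and AN7838 of that list have no row in the deposited table and are not analysed here. The other 34 lie among 11127 genes on the array, and all 34 passed the filter on dim genes. By background knowledge 18 encode polyketide synthases, 1 (AN8412) a hybrid of polyketide synthase and peptide synthetase, and 15 peptide synthetases or synthetase-like proteins.

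Whole colonies, stab-inoculated on agar and kept in darkness, were scraped off the medium, and their total RNA was labelled with Cy3 and hybridised to 1-colour Agilent arrays, 1 array per medium and day. The media are called CYAs (days 4, 8 and 10, 3 arrays), YES (days 4 and 10, 2 arrays) and CYA (days 4, 8 and 10, 3 arrays), as in the labels, with no attempt to spell the names out. YES is written YESs in 2 sample titles, which was taken as the same medium. The labels give no strain, genotype or number of cultures per array, so the p-values below say nothing of the spread between cultures. With 1 array per medium and day, they rest on how far the 8 arrays depart from a sum of medium and day effects. That departure mixes noise with any medium effect that changes with age. A whole colony also holds spore-bearing structures and, when old, fruiting bodies, and a larger share of a cell type cannot be told apart from more RNA per cell.

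Levels are log2 signals relative to the 75th percentile of the same array, so that 0 is that percentile. Probes differ in brightness, and a level is compared between arrays, not between genes. The 75th percentile lay between 1483 on CYAs day 10 and 4977 on YES day 10, and no gene probe was saturated. The CYAs arrays and CYA day 10 lay on one slide, and the YES arrays and CYA days 4 and 8 on the other. YES and CYAs were thus never on the same slide. The CYAs day 8 array stood apart in 1 respect. There were 180 genes whose CYA day 8 signal was 16 or more times that of both CYAs day 4 and CYAs day 10. For these genes the CYAs day 8 signal was 0.217 of the CYA day 8 signal in the median, with a 25th to 75th percentile of 0.202 to 0.231. Whether signal or RNA of CYA day 8 was carried over or mixed into the CYAs day 8 sample was not tested, which bears on every CYAs day 8 level below. Counts of the 34 genes over pairs that include day 8 are given without it as well.

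Polyketide synthases build carbon chains from small acyl units in the manner of fatty acid synthases. Peptide synthetases join amino acids without the ribosome, and synthetase-like proteins carry only part of that machinery. In Aspergillus the gene of such a backbone enzyme commonly lies beside genes for tailoring enzymes, a transporter and a regulator, and many of these clusters are known for being silent in laboratory culture.

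Many of the synthase genes gave little signal on any array. For 13 of the 34 genes the mean signal of the gene's 3 probes stayed under 150 on all 8 arrays, with highest values of 14.2 to 142. That is 38.2% of the synthase genes, against 13.4% of the 11109 genes tested. The threshold of 150 was chosen after the values were seen, and dim probes can also give low values, so a low signal does not show that a gene is off. The 13 genes are 8 polyketide synthase genes, the hybrid gene AN8412 and 4 peptide synthetase or synthetase-like genes. The 99th percentile of the negative control spots was 3.53 to 12.9 over the arrays. Only AN2035, AN5475 and AN9244 lay under it on at least 1 array.

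**Figure D1:**
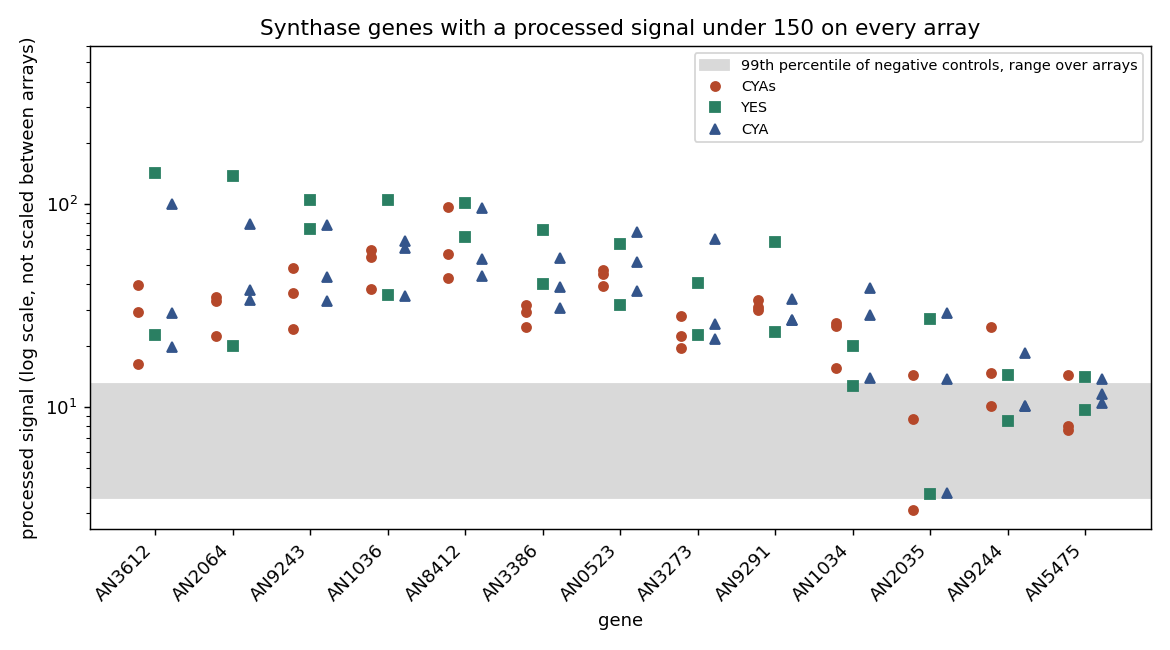
Processed signal (log scale, not scaled between arrays) of the 13 synthase genes that stayed under 150 on every array. Each point is 1 array, coloured by medium, and the grey band is the range of the 99th percentile of negative control spots over the 8 arrays. AN2035, AN5475 and AN9244 reach well into the band or below it, AN1034 meets its upper edge on 1 YES array, and the other 9 genes lie above it.

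AN5475, a polyketide synthase gene, had the lowest ceiling. Its signals were 7.98, 7.64 and 14.2 on CYAs days 4, 8 and 10, 9.61 and 14.1 on YES days 4 and 10, and 13.7, 10.4 and 11.5 on CYA days 4, 8 and 10. For 1 of the 3 probes no array gave a spot well above background (0 of 8). The synthetase gene AN9244 had signals of 14.6, 10.0 and 24.8 on CYAs, 8.44 and 14.3 on YES, and 10.0, 10.1 and 18.3 on CYA in the same order of days. No medium or day stood clear of the others for either gene.

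Several genes with a known product were among these 13. AN1034 and AN1036 are the polyketide synthase pair of asperfuranone, an azaphilone. AN1034 had levels of -6.72, -6.96 and -6.59 on CYAs days 4, 8 and 10, -7.28 and -7.96 on YES days 4 and 10, and -6.30, -6.80 and -7.06 on CYA days 4, 8 and 10. AN1036 had -5.52, -5.82 and -5.28 on CYAs, -5.80 and -5.58 on YES, and -5.53, -5.71 and -5.72 on CYA. Its range of 0.54 over all media and days was the narrowest of the 34 genes. None of the 6 other genes listed for that locus (AN1029 to AN1033 and AN1035) was 2-fold higher or lower in every pair of any comparison.

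AN8412, the hybrid synthetase gene of aspyridone, a pyridone alkaloid, was similarly flat. Its levels were -4.82, -5.78 and -5.11 on CYAs, -4.85 and -5.62 on YES, and -4.98, -5.88 and -5.39 on CYA, a range of 1.06. Of the 7 listed neighbours 1, AN8410, was at least 2-fold higher on day 10 than on day 4 in every medium. The polyketide synthase gene AN3386 had -6.53, -6.63 and -5.91 on CYAs, -5.62 and -6.06 on YES, and -5.81, -6.34 and -5.91 on CYA. AN0523, also a polyketide synthase gene, had -6.10, -6.11 and -4.98 on CYAs, -5.96 and -6.29 on YES, and -5.87, -5.43 and -5.63 on CYA. Neither gene had a medium or a day whose arrays all lay apart from the rest. The ranges of the 13 genes were 0.54 to 3.08, but 0.26 to 0.74 with normexp background correction and quantile normalization and 0.17 to 0.80 in the authors' deposited table. Of the 13, 6 were highest on CYAs day 10, the array with the lowest 75th percentile, and the part of that scaling in those 6 values was not tested.

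The other 21 genes reached signals of 201 to 87641 on at least 1 array. Over all 34 genes the median range was 2.16, against 1.68 over all genes tested. A range of at least 1 log2 unit was found in 33 genes (97.1%), against 76% of all genes, of at least 2 in 19 (55.9%), against 40.7%, and of at least 4 in 8 (23.5%), against 10.5%. The median range was 2.18 for the 18 polyketide synthase genes (0.54 to 9.18) and 2.23 for the 15 peptide synthetase and synthetase-like genes (1.18 to 5.05). The widest range was that of AN6431. No array held the highest level of most genes: 11 genes (32.4%) were highest on CYAs day 10, against 23.9% of all genes, and 0 on CYAs day 8, against 1.05%. The lowest level lay on CYAs day 4 for 12 genes (35.3%), against 17.4% of all genes.

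**Figure D2:**
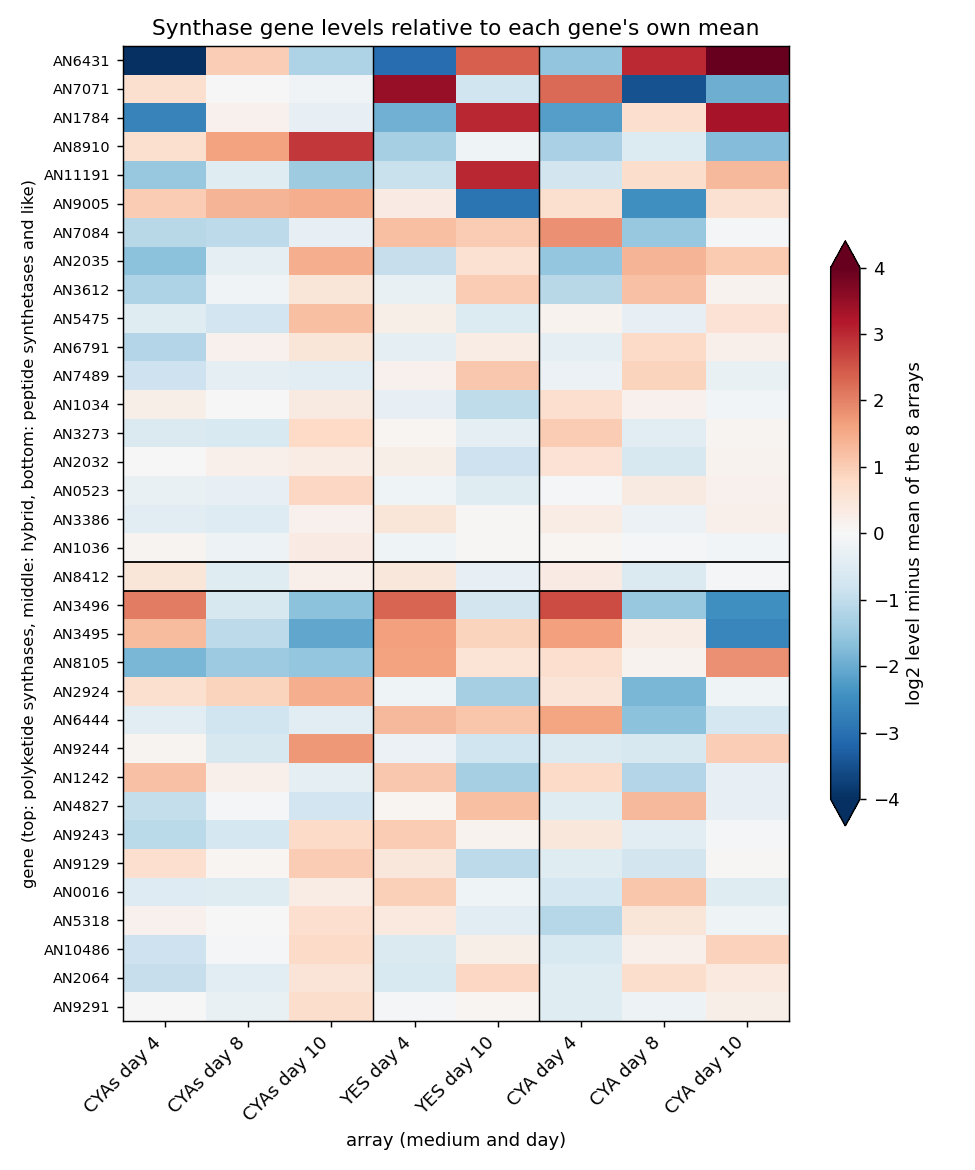
Levels of the 34 synthase genes on the 8 arrays (columns, by medium and day), each minus the gene's own mean over the arrays (log2, colours cut at 4 either way). Polyketide synthase genes are at the top, the hybrid AN8412 in the middle and peptide synthetase and like genes below, each set ordered by range. AN6431, AN7071 and AN1784 show the widest ranges, and AN1036, AN3386 and AN8412 the narrowest.

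Some genes that met no pair rule below and have no product assigned here had ranges under the median of the 34 genes. AN9129, AN5318 and AN0016 were among them, as were AN7489 and AN10486 (1.91 and 1.75), described further below. AN9129, named tmpL in the reference table, had levels of -3.59, -4.18 and -3.24 on CYAs days 4, 8 and 10, -3.80 and -5.29 on YES days 4 and 10, and -4.75, -4.98 and -4.21 on CYA days 4, 8 and 10. AN5318 had -0.56, -0.71 and -0.06 on CYAs, -0.32 and -1.14 on YES, and -1.85, -0.24 and -0.91 on CYA. Both are peptide synthetase or synthetase-like genes, and on CYAs AN9129 lay above CYA of the same day by less than 2-fold on days 8 and 10. AN0016, of the same class, ranged over 1.83, with YES day 4 and CYA day 8 highest. The dim genes AN2064, AN3273, AN9243 and AN9291 ranged over 1.74, 1.63, 2.10 and 1.18.

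Additive effects of medium and day were fitted to all 11109 genes with limma. No synthase gene passed at an adjusted p under 0.05 in any comparison. The F test of any medium effect called 0 genes in all (0%), with 6 synthase genes (17.6%) at an unadjusted p under 0.05 against 11.3% of all genes. The F test of any day effect also called 0 genes (0%), with 13 synthase genes (38.2%) at an unadjusted p under 0.05 against 18.1% of all genes. The descriptions that follow therefore rest on same-day or same-medium pairs of single arrays. A gene was counted where it differed at least 2-fold in the same direction in every pair.

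CYAs was set against CYA on days 4, 8 and 10, which asks which synthase genes differ between these media at one age. AN8910 was higher on CYAs on all 3 days, and AN6431 and AN8105 were lower on all 3. That is 1 of 34 genes higher, where 1.97% of all genes met the rule, and 2 lower, where 1.15% did. The same 3 genes met it with normexp and quantile normalization and in the authors' deposited values. Limma called 0 of 11109 genes (0%), and 4 synthase genes (11.8%) had an unadjusted p under 0.05, against 8.79% of all genes. The median difference of the 34 genes was -0.21, against -0.01 over all genes, with 13 genes higher and 21 lower.

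AN6431 encodes a polyketide synthase to which no product is assigned here. Its level was -5.98, -0.16 and -2.36 on CYAs days 4, 8 and 10, -4.19 and 1.25 on YES days 4 and 10, and -2.70, 1.85 and 3.20 on CYA days 4, 8 and 10. It was lowest on day 4 within every medium, and highest on CYA day 10. The difference of CYAs from CYA was -3.28, -2.01 and -5.56 on days 4, 8 and 10, the last pair within 1 slide. The fitted difference was -3.62 (SE 0.69, limma adjusted p = 0.37). On CYAs day 8 its signal was 0.249 of that on CYA day 8, and AN6431 is itself 1 of the 180 genes over which the median share of 0.217 was taken. Its 3 probes ranged over 8.45 to 9.62 log2 units, and 1 of them was well above background on only 6 of 8 arrays.

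Markers of fruiting bodies and Hülle cells, the cells that surround the sexual fruiting body, had a lower summed level on CYAs than on CYA. The summed level of the 3 marker genes (AN7349, AN7388 and AN6923) was 0.76, 4.89 and 4.10 on CYAs days 4, 8 and 10, 0.07 and 1.74 on YES days 4 and 10, and 3.03, 6.59 and 6.80 on CYA (log2 scale). Of the 3 genes 1, AN7349, was at least 2-fold lower on CYAs on every day, and none was higher on every day. On day 4 the other markers were lower on CYAs too, with AN7388 at 0.60 against 2.68 on CYA and AN6923 at -2.74 against 0.46. AN7388 was higher on CYAs on days 8 and 10, and AN6923 on day 10. The lower sum on days 8 and 10 was thus carried by AN7349. AN7349, whose product is a glucanase of Hülle cells, stood at -5.33, 4.54 and 2.61 on CYAs, -5.41 and 0.52 on YES, and -1.25, 6.52 and 6.69 on CYA. Whether these markers lay above background on every array is not given here, and their part in the AN6431 values was not tested.

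AN8105, a synthetase-like gene, was low on CYAs at every age. Its level was -3.69, -3.30 and -3.40 on CYAs days 4, 8 and 10, -0.25 and -1.32 on YES days 4 and 10, and -1.19, -1.71 and -0.03 on CYA days 4, 8 and 10. The CYAs arrays did not overlap those of the other media. The difference of CYAs from CYA was -2.51, -1.59 and -3.36 on the 3 days, and the fitted difference was -2.49 (SE 0.53, limma adjusted p = 0.38).

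AN8910, a polyketide synthase gene, showed the reverse order. Its level was -4.66, -3.70 and -2.48 on CYAs, -6.63 and -5.48 on YES, and -6.59, -5.86 and -7.04 on CYA. Every CYAs array lay above every array of the other media. The fitted difference from CYA was 2.88 (SE 0.56, limma adjusted p = 0.37), and 1.73 with normexp and quantile normalization. Of its 3 probes 2 were well above background on all arrays and the third on 2 of 8. The 7 marker genes of asexual sporulation (conidia and the conidiophores that bear them) leaned the same way between CYAs and CYA, but not on YES day 4. Of them 3 (AN8803, AN8006 and AN8209) were at least 2-fold higher on CYAs than on CYA on every day, against 1.97% of all genes. AN0973, the regulator brlA, stood at -2.76 on day 4 of both media. The summed level of the 7 was 4.71 to 5.44 on CYAs, 5.40 and 0.18 on YES days 4 and 10, and 0.20 to 3.27 on CYA (log2 scale). On CYAs that sum was carried by AN8803, AN8006 and AN8209. On YES day 4 the sum thus lay in the range of CYAs, while AN8910 stood at -6.63. Whether the 7 markers lay above background on every array is not given here either, and their part in the AN8910 values was not tested. Without the day 8 arrays the same 1 higher and 2 lower synthase genes met the rule, against 3.04% and 1.89% of all genes. Without the day 4 arrays of CYAs or CYA, 3 genes were higher on CYAs in every remaining pair, namely AN8910, AN7071 and AN2924. Fewer pairs have to meet the rule there, and the share of all genes is not given, so the larger count is not a result about synthase genes.

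**Figure D3:**
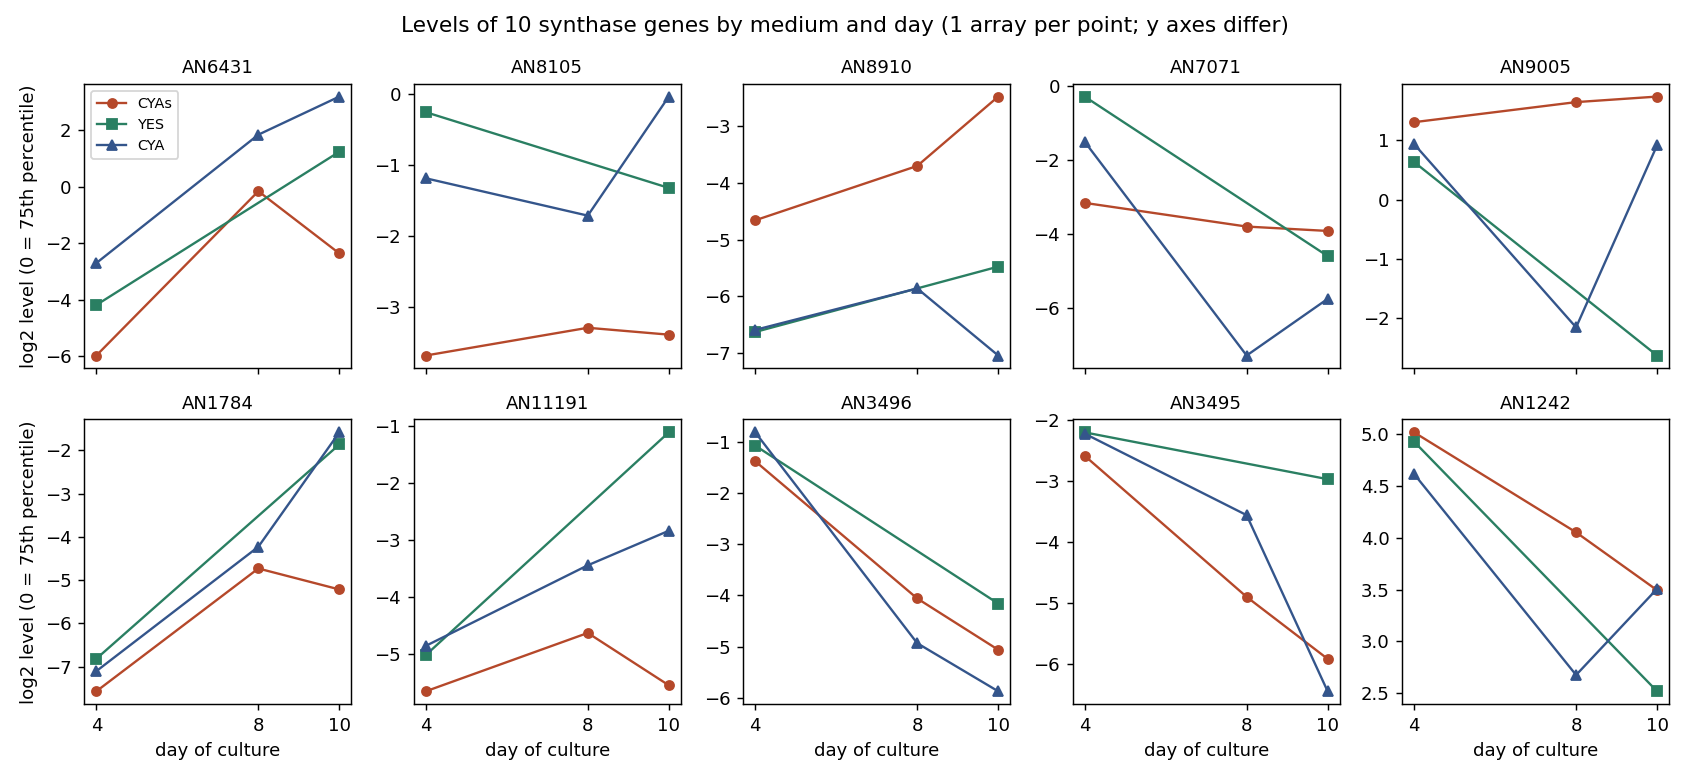
Log2 level (0 is the array's 75th percentile) against day of culture for 10 synthase genes, 1 array per point, with lines joining the days of CYAs, YES and CYA. AN9005 was added after its values were seen. The CYAs points lie below both other media for AN8105 and above them for AN8910, and AN6431, AN1784 and AN11191 are lowest on day 4 in YES and CYA.

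YES was set against CYA on days 4 and 10. The polyketide synthase gene AN7071 was higher on YES on both days and AN6431 was lower, and no other synthase gene met the rule. These are 1 of 34 in each direction, where 2.96% of all genes were higher and 3.96% lower. With normexp and quantile normalization neither gene met the rule (0 and 0), against 1.53% and 2.64% of all genes. Limma called 0 of 11109 genes (0%), and 1 synthase gene, AN1034, had an unadjusted p under 0.05 (2.94%, against 7.45% of all genes). The median difference was 0.02, against -0.03 over all genes. The 2 days gave unequal counts, and so they did over all genes. On day 4 (within 1 slide) 3 synthase genes were at least 2-fold higher on YES and 1 lower (9.06% and 8.72% of all genes). On day 10 (across slides) 9 synthase genes were higher and 7 lower (16.1% and 19.4% of all genes). These synthase gene counts are also those without the YES or CYA array of the other day.

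AN7071 is linked to citreoisocoumarin, an aromatic polyketide. Its level was -3.15, -3.79 and -3.91 on CYAs days 4, 8 and 10, -0.29 and -4.59 on YES days 4 and 10, and -1.51, -7.27 and -5.74 on CYA days 4, 8 and 10. It was highest on day 4 of YES and CYA, and over the CYAs days it was nearly flat. YES exceeded CYA by 1.22 and 1.15 on days 4 and 10, and the fitted difference was 1.75 (SE 1.20, limma adjusted p = 0.74). That difference was 0.85 without YES day 4, 2.65 without YES day 10 and 2.88 without CYA day 4. Its 3 probes ranged over 5.17 to 8.11. For AN6431 the difference of YES from CYA was -1.49 and -1.96, with a fitted difference of -1.32 (SE 0.81, limma adjusted p = 0.72). It was -0.46 with slide as a block, -0.67 with slide as a random block and -0.46 without CYA day 10. All 3 fruiting body and Hülle cell markers were at least 2-fold lower on YES than on CYA on both days.

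YES was set against CYAs on the same 2 days, always across slides. AN4827, AN6431, AN6444, AN7084 and AN8105 were higher on YES on both days, which is 5 of 34 genes (14.7%), where 3.51% of all genes met the rule. With normexp and quantile normalization 2 of them did, AN7084 and AN8105, against 1.85%, and in the authors' deposited values 3, AN6431, AN7084 and AN8105, against 2.09%. AN8910 alone was lower, where 3.47% of all genes were. On day 4 there were 8 higher and 1 lower synthase genes, and on day 10 there were 9 higher and 11 lower, as without either array of the other day. Over all genes 12.1% were higher and 5.12% lower on day 4, and 13.9% and 26.6% on day 10. Limma called 1 of 11109 genes (0.009%) and 0 synthase genes, and 9 of these (26.5%) had an unadjusted p under 0.05, against 14.3% of all genes. Without YES day 4 limma called 158 genes, and without any other single array 0. The median difference was 0.31, against -0.05 over all genes.

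AN8105, AN8910 and AN6431 had the 3 largest fitted differences of these 6 genes. YES exceeded CYAs in AN8105 by 3.44 and 2.07 on days 4 and 10, with a fitted difference of 2.53 (SE 0.62, limma adjusted p = 0.30). In AN8910 the differences were -1.97 and -3.0, with a fitted value of -2.30 (SE 0.66, limma adjusted p = 0.30). AN6431 differed by 1.79 and 3.61, with a fitted value of 2.30 (SE 0.81, limma adjusted p = 0.33). A block for slide moved AN8105, AN8910 and AN6431 to 4.45, -4.61 and 4.54, and a random block to 3.98, -4.04 and 3.98. The slide term rests on CYA day 10, the only CYA array on the slide of the CYAs arrays. AN8105 gave 1.63 without YES day 4, AN8910 gave -1.51 and AN6431 1.21 without CYAs day 10, and AN8910 -1.46 with normexp and quantile normalization.

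The other 3 genes differed less. AN4827, a peptide synthetase or synthetase-like gene, stood on YES at -1.63 on day 4 and -0.51 on day 10, against -2.66, -1.79 and -2.47 on CYAs in the order of days, and -2.20, -0.43 and -2.05 on CYA. Its fitted difference of YES from CYAs was 1.65 (SE 0.41, limma adjusted p = 0.30), and 0.80 with slide as a block and 1.01 with slide as a random block. AN7084 is named fma-PKS in the reference table, the name of the fumagillin synthase of Aspergillus fumigatus. It stood at -0.40 and -0.59 on YES, against -2.71, -2.66 and -1.92 on CYAs, and 0.23, -3.13 and -1.66 on CYA. Its fitted difference was 1.47 (SE 0.80, limma adjusted p = 0.43), which moved to 0.47 with a block for slide, 0.72 with a random one and 0.52 without CYAs day 4. On CYA it was high on day 4 alone, so that YES and CYA did not keep 1 order over the days.

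AN6444, a synthetase-like gene in the region of the cichorine cluster, was the fifth. On YES it had a level of -2.89 on day 4 and -3.06 on day 10, against -4.59, -4.97 and -4.59 on CYAs days 4, 8 and 10, and -2.59, -5.83 and -4.89 on CYA days 4, 8 and 10. Both YES arrays and CYA day 4 were high, and the 5 others low. AN6448, the polyketide synthase gene of cichorine, stood at 1.10 and 1.04 on YES, against -1.23, -2.52 and -2.94 on CYAs, and 1.64, -3.56 and -3.26 on CYA. The same 3 arrays were its highest, and on all 8 arrays both genes lay on the same side of their own mean. The fitted difference of AN6444 was 1.33 (SE 0.72, limma adjusted p = 0.43). It was 0.88 with normexp and quantile normalization, 0.67 with the median of probes, 0.14 with a block for slide, 0.44 with a random one, 0.63 without CYAs day 4 and 0.84 without YES day 10. Its 3 probes differed, with ranges of 2.07 to 4.13.

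Day 10 was set against day 4 within each medium, which asks which genes go with the age of the colony. The polyketide synthase genes AN1784, AN3612 and AN6431 were higher on day 10 in all 3 media, and the peptide synthetase genes AN1242 and AN3496 were lower. AN2035, also a polyketide synthase gene, met the rule in values as measured, but was not well above background on day 4. With it, 4 of 34 genes (11.8%) were higher, where 4.11% of all genes met the rule, and 2 (5.88%) lower, where 2.6% did. Among genes well above background on all arrays (at least 1 probe on each array) 3 of 33 (9.09%) were higher, against 3.6%. AN6431 alone was higher with normexp and quantile normalization (1 gene, against 0.738% of all genes) and in the authors' deposited values (1 gene, against 0.936%). With normexp and quantile normalization 1 gene, AN3496, was lower, against 1.98%. Limma called 0 of 11109 genes (0%), and 12 synthase genes (35.3%) had an unadjusted p under 0.05, against 22.3% of all genes. The median difference of the 34 genes was 0.14, against 0.13 over all genes. The pairs on CYAs and on YES lay within 1 slide each, and the CYA pair across slides.

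The largest age difference was that of AN6431. Day 10 exceeded day 4 by 3.62 on CYAs, 5.44 on YES and 5.91 on CYA, and the fitted difference was 4.99 (SE 0.69, limma adjusted p = 0.11). The Hülle cell and fruiting body markers AN7349 and AN6923 were also at least 2-fold higher on day 10 in every medium, and AN7388 was not. Day 8 exceeded day 4 by 5.83 on CYAs and 4.55 on CYA.

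AN1784 followed. The reference table names it pyr2, as a pyripyropene synthase of Aspergillus fumigatus is named. Its level was -7.57, -4.73 and -5.22 on CYAs days 4, 8 and 10, -6.82 and -1.86 on YES days 4 and 10, and -7.11, -4.23 and -1.58 on CYA days 4, 8 and 10. Day 4 was lowest in each medium, and day 10 was high on YES and CYA but not on CYAs. The fitted difference of day 10 from day 4 was 4.28 (SE 0.71, limma adjusted p = 0.12), 2.16 with normexp and quantile normalization and 2.54 in the authors' deposited values. Its 3 probes ranged over 4.75 to 7.98. The probes with the wider ranges were well above background on only 6 and 7 of the 8 arrays.

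AN2035 and AN3612 gave little signal. AN2035 had levels of -9.78, -8.49 and -6.69 on CYAs, -9.06 and -7.53 on YES, and -9.66, -6.77 and -7.07 on CYA. On the day 4 arrays all 3 probes were not well above background, so with the main scaling day 10 was at least 1.45-fold higher over the 3 media. That bound sets the mean of day 10 against the higher of the day 4 level and the dimmest probe well above background on each day 4 array. As measured, the fitted difference of AN2035 was 2.40 (SE 0.52, limma adjusted p = 0.12). AN2032, the polyketide synthase gene near AN2035, had -4.51, -4.27 and -4.20 on CYAs, -4.25 and -5.30 on YES, and -3.91, -5.12 and -4.35 on CYA, and did not share that order of arrays. Both genes lay on the same side of their own means on 3 of 8 arrays. AN3612 had -7.38, -6.30 and -5.67 on CYAs, -6.45 and -5.14 on YES, and -7.27, -4.99 and -5.99 on CYA. Its fitted difference of 1.43 (SE 0.37, limma adjusted p = 0.14) was 0.21 with normexp and quantile normalization and 0.24 in the authors' deposited values, and that of AN2035 was 0.17 and 0.16. The bound for AN2035 was not taken with these alternatives.

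AN3496 and AN3495 are the peptide synthetase genes of fellutamide, a lipopeptide aldehyde that inhibits the proteasome. AN3496 had levels of -1.38, -4.06 and -5.06 on CYAs days 4, 8 and 10, -1.08 and -4.16 on YES days 4 and 10, and -0.82, -4.94 and -5.87 on CYA days 4, 8 and 10. The 3 day 4 arrays lay apart from all later ones. Day 10 differed from day 4 by -3.68 on CYAs, -3.08 on YES and -5.05 on CYA, and the fitted difference was -3.94 (SE 0.45, limma adjusted p = 0.11). AN3495 had -2.59, -4.90 and -5.92 on CYAs, -2.20 and -2.97 on YES, and -2.22, -3.56 and -6.45 on CYA. It was likewise highest on day 4, but on YES day 10 it differed from day 4 by only -0.77. Of the 5 other genes listed for that locus 1, AN3490, was at least 2-fold lower on day 10 than on day 4 in every medium.

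AN1242, the peptide synthetase gene of nidulanin A and named nrps1 in the reference table, gave the highest signal of the 34 genes. Its level was 5.02, 4.05 and 3.49 on CYAs days 4, 8 and 10, 4.93 and 2.52 on YES days 4 and 10, and 4.61, 2.68 and 3.51 on CYA days 4, 8 and 10. The 3 day 4 arrays again lay above all later ones. Day 10 differed from day 4 by -1.52 on CYAs, -2.41 on YES and -1.11 on CYA, with a fitted difference of -1.68 (SE 0.40, limma adjusted p = 0.13). Its 3 probes agreed closely, with ranges of 2.45 to 2.58.

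**Figure D4:**
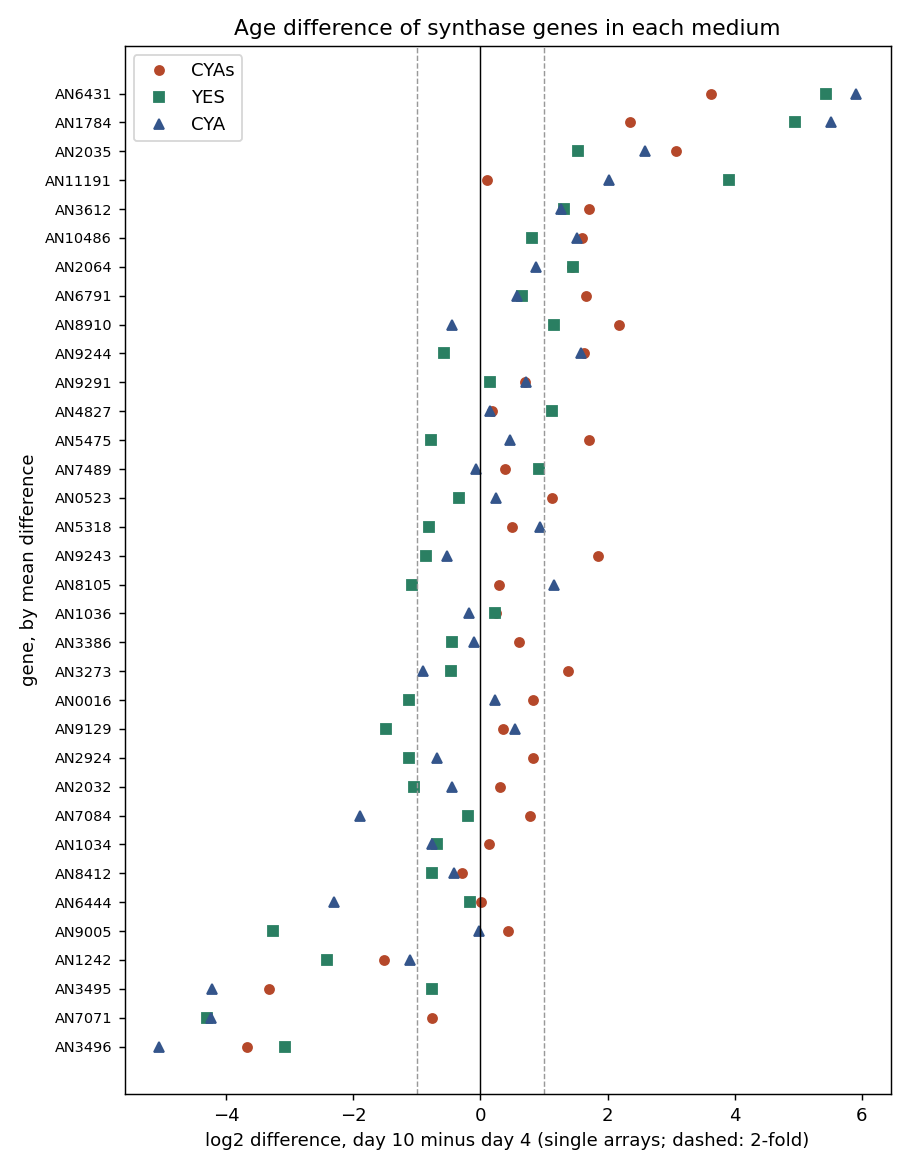
Difference of day 10 from day 4 (log2, single arrays) for the 34 synthase genes, 1 point per medium, ordered by the mean of the 3 media. Dashed lines mark 2-fold. AN6431, AN1784, AN3612 and AN2035 (not well above background on day 4) lie right of the upper line in all 3 media, and AN3496 and AN1242 left of the lower line.

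Day 8 was set against day 4 on CYAs and CYA, each within 1 slide. AN1784, AN2035, AN3612, AN6431, AN6791 and AN11191 were higher on day 8 in both media, which in values as measured is 6 of 34 (17.6%), where 6.97% of all genes met the rule. AN2035 was not well above background on day 4, so that its day 8 level gives a bound of only 1.0-fold. Among genes well above background on all arrays the others are 5 of 33 (15.2%), against 6.64%. The count of higher genes was 1 (AN6431; 3.8% of all genes) with normexp and quantile normalization, 2 (AN1784 and AN6431; 4.28%) in the authors' deposited values and 3 (AN1784, AN6431 and AN6791; 7.22%) with the median of probes. For AN2035 the fitted difference of 1.87 was 0.29 with normexp and quantile normalization. AN3495 and AN3496 were lower (5.88%), where 1.75% of all genes were. Limma called 1 of 11109 genes (0.009%) and 0 synthase genes, with 10 synthase genes (29.4%) at an unadjusted p under 0.05 against 15.5% of all genes. Without the CYAs day 8 or CYAs day 4 array, the CYA pair alone gave 11 higher and 10 lower synthase genes. The CYAs pair alone gave 6 and 2. Over all genes the shares higher and lower were 18.5% and 17.4% in the CYA pair, and 10.7% and 2.73% in the CYAs pair. Over all genes limma called 73 without YES day 4 or without YES day 10, and 0 without any one of the other 6 arrays.

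For AN1784 the fitted difference of day 8 from day 4 was 3.03 (SE 0.84, limma adjusted p = 0.24), with 2.84 on CYAs and 2.88 on CYA. It was 1.12 with normexp and quantile normalization and 1.50 in the authors' deposited values. AN6791, a polyketide synthase gene, differed by 1.33 on CYAs and 1.15 on CYA. Its levels were -5.04, -3.70 and -3.37 on CYAs, -4.23 and -3.57 on YES, and -4.25, -3.10 and -3.68 on CYA. The day 4 arrays were the 3 lowest. The fitted difference was 1.16 (SE 0.37, limma adjusted p = 0.28), 0.66 with normexp and quantile normalization and 0.75 in the authors' deposited values. In AN3612 it was 1.65 (SE 0.44, limma adjusted p = 0.23), and 0.50, 0.52 and 0.94 with normexp and quantile normalization, in the deposited values and without CYA day 8. AN6431 had 5.30 (SE 0.81, limma adjusted p = 0.20).

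For the fellutamide genes day 8 differed from day 4 in AN3496 by -2.68 on CYAs and -4.11 on CYA, with a fitted difference of -3.18 (SE 0.52, limma adjusted p = 0.20). In AN3495 the fitted difference was -1.33 (SE 0.86, limma adjusted p = 0.47). It was -0.61 without CYAs day 8, -0.81 without CYAs day 4, -0.84 without CYA day 4 and -2.04 without CYA day 8, so its size rests on single arrays.

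AN11191 encodes the polyketide synthase of asperlin, an epoxide-bearing lactone. Its level was -5.66, -4.63 and -5.55 on CYAs days 4, 8 and 10, -5.02 and -1.11 on YES days 4 and 10, and -4.86, -3.45 and -2.84 on CYA days 4, 8 and 10. YES day 10 stood highest, and CYAs day 10 lay near CYAs day 4. Day 10 exceeded day 4 by 3.91 on YES and 2.02 on CYA but by 0.11 on CYAs. The fitted difference of day 8 from day 4 was 1.69 (SE 0.84, limma adjusted p = 0.38), 1.0 with normexp and quantile normalization, 1.04 in the authors' deposited values and 2.55 without CYAs day 4.

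Backbone genes commonly lie in clusters, so the 3 genes on each side of every synthase gene, in the order of the reference annotation, were set beside it. That rule was added after the data were seen, and no test was made. Over all genes 3.51% were at least 2-fold higher on YES than on CYAs in every pair. On day 10 against day 4, 4.11% of all genes were higher and 2.6% lower, and on day 8 6.97% and 1.75%. On CYAs against CYA, 1.97% were higher and 1.15% lower. Beside AN8105, 3 of 6 neighbours (AN8106, AN11037 and AN11049) were at least 2-fold higher on YES than on CYAs on both days, as AN8105 was. AN8106 stood at 4.22 and 3.46 on YES, against 1.32, 1.90 and 1.93 on CYAs, and 3.56, 2.75 and 5.20 on CYA. All 3 CYAs arrays lay below all others in these 3 genes.

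Beside AN1784, the genes AN1785, AN1786 and AN1787 were at least 2-fold higher on day 10 than on day 4 in all 3 media. AN1785 stood at -7.68, -2.75 and -4.93 on CYAs, -5.45 and 0.08 on YES, and -6.02, -1.62 and 1.05 on CYA. Its highest arrays were CYA day 10 and YES day 10, as for AN1784. The 2 genes on the other side that were measured, AN1781 and AN1782, did not meet the rule.

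Of the 6 neighbours of AN11191, AN9218 and AN11198 were at least 2-fold higher on day 8 than on day 4 in both media. AN11199, next to the synthase gene, stood at -6.18, -6.06 and -5.31 on CYAs, -6.45 and -2.56 on YES, and -6.82, -5.88 and -1.96 on CYA. It was high on day 10 of YES and CYA, but not on CYA day 8. Beside AN7071, the genes AN7070, AN10884 and AN10889 were at least 2-fold lower on day 8 than on day 4 in both media. AN7071 itself did so on CYA alone, with a difference of -5.76 there and of -0.64 on CYAs.

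**Figure D5:**
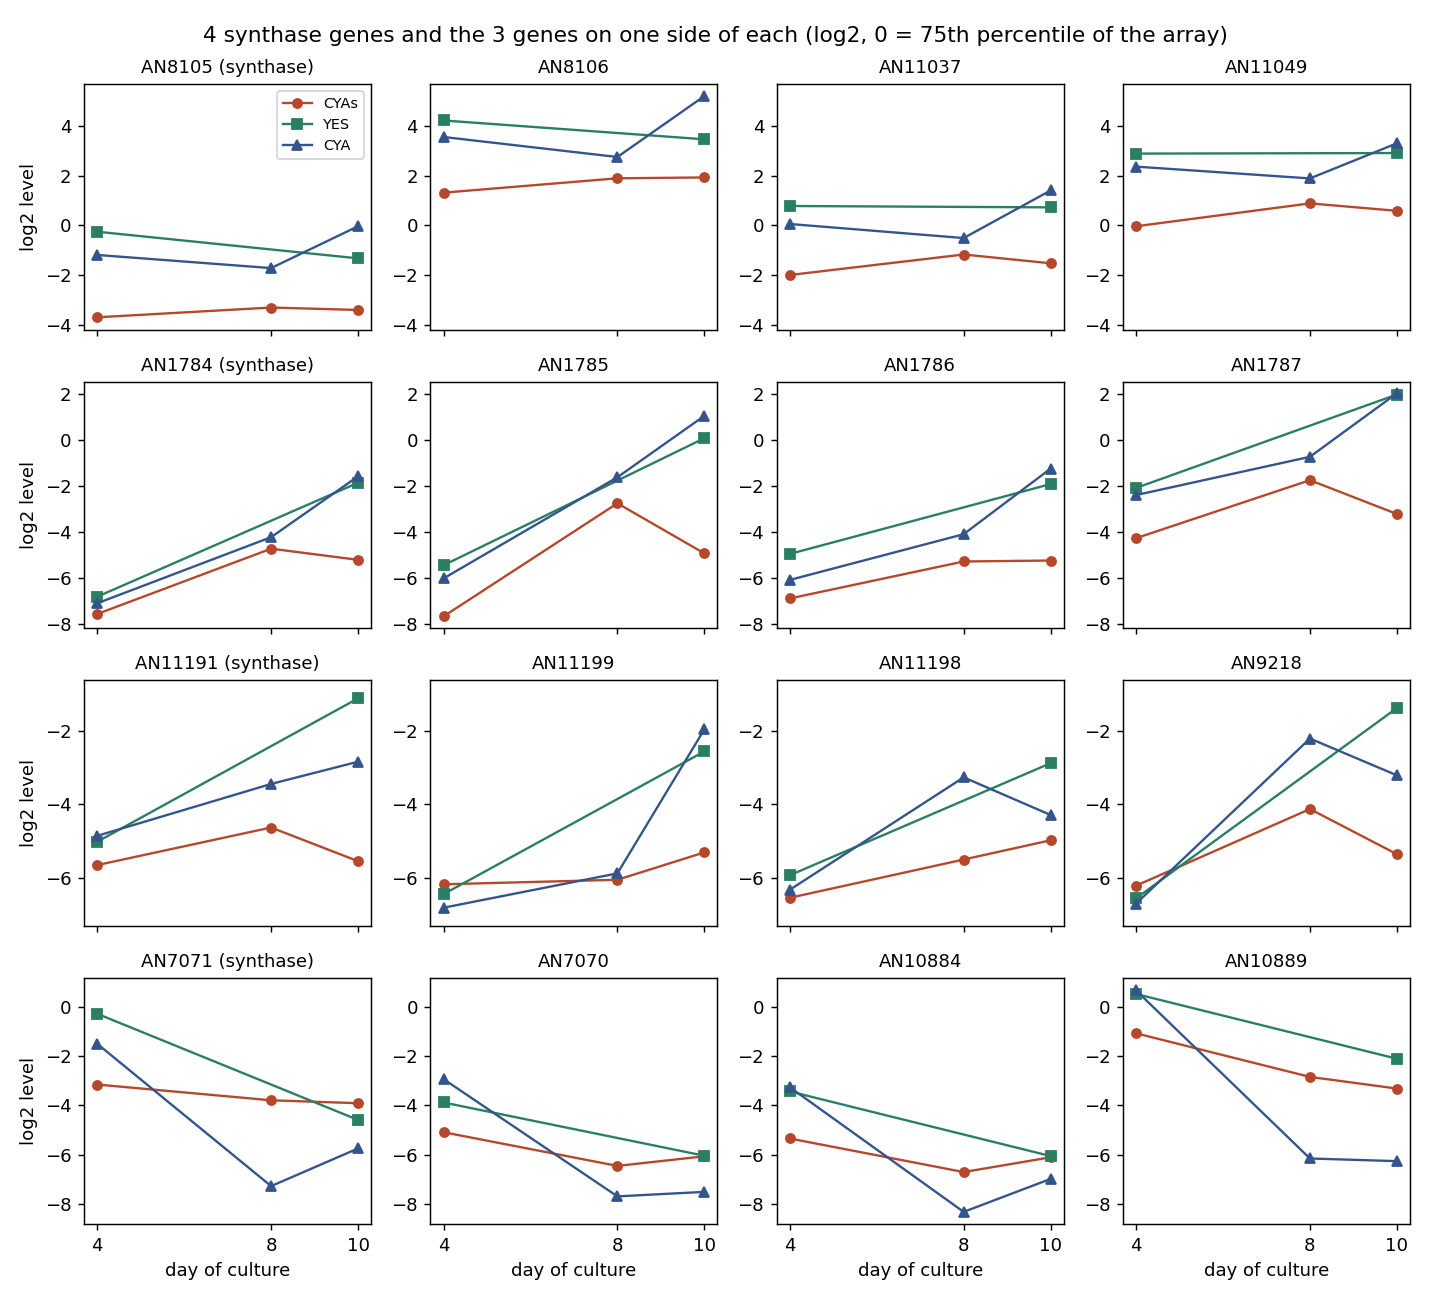
Log2 level (0 is the array's 75th percentile) against day of culture for AN8105, AN1784, AN11191 and AN7071 (left column) and the 3 genes on one side of each in the reference order, 1 array per point. The y axis is shared within a row. The CYAs points lie lowest throughout the AN8105 row, and in the AN1784 row day 4 lies lowest within each medium.

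For several synthase genes no neighbour was at least 2-fold different in the same direction in every pair. That was 0 of 6 for AN6431 and AN7071 in YES against CYA, and for AN4827, AN7084 and AN8910 in YES against CYAs. It was also 0 of 6 for AN2035, AN3496 and AN3612 on day 10 against day 4, and for AN3612 and AN6791 on day 8. These counts leave out neighbours that moved the same way by less. AN3495, beside AN3496, was lower on day 10 in all 3 media, but by only -0.77 on YES. Some neighbours of other synthase genes met the rule. Beside AN6431, AN6432 alone of 6 neighbours was at least 2-fold lower on CYAs than on CYA on every day and higher on day 10 than on day 4 in every medium. AN6432 stood at -4.30, -2.17 and -2.44 on CYAs, -3.20 and -0.83 on YES, and -2.58, -0.52 and 0.61 on CYA. Beside AN8910, 2 of 6 neighbours (AN8908 and AN8907) were at least 2-fold higher on CYAs than on CYA on every day. AN8908 stood at -2.21, -3.10 and -2.29 on CYAs, -2.09 and -6.62 on YES, and -4.36, -6.38 and -6.22 on CYA, and was as high on YES day 4 as on CYAs, unlike AN8910. Beside AN6444, 2 of 6 neighbours (AN6446 and AN6442) were at least 2-fold higher on YES than on CYAs on both days. Beside AN1242, 1 of 5 measured neighbours (AN1241) was at least 2-fold lower on day 10 than on day 4 in every medium.

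A list of 17 synthase genes of better known clusters was set beside these genes. Of the 17, 6 were at least 2-fold higher on CYAs than on CYA on every day and 1 was lower. That compares with 1 and 2 of the 34, and with 1.97% and 1.15% of all genes. The counts of the 17 were not made without the day 8 arrays, and AN8209 is also among the conidium markers. Between day 10 and day 4, 1 was higher and 5 lower in every medium. That compares with 4 and 2 of the 34, and with 4.11% and 2.6% of all genes. The median fitted difference of day 10 from day 4 was -1.60 over the 17 genes, 0.14 over the 34 and 0.13 over all genes. These are descriptions of lists chosen with earlier results known, and the difference between them was not tested.

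A list of 4 genes was taken for the activation of synthases and for fatty acid synthesis. AN6140, the phosphopantetheinyl transferase that activates polyketide synthases and peptide synthetases, had levels of -0.39, -0.82 and -0.84 on CYAs, -0.61 and -0.26 on YES, and 0.04, -1.16 and -0.06 on CYA. AN9407 and AN9408 encode the fatty acid synthase, and AN9407 had 0.22, -1.26 and -2.99 on CYAs, -0.39 and -1.17 on YES, and -1.35, -1.54 and -2.93 on CYA. With AN6126, which encodes acetyl-CoA carboxylase, 0 of these 4 genes were 2-fold higher or lower on day 10 in every medium. AN9408 was at least 2-fold higher on YES than on CYA on both days, with 0.24, -1.44 and -2.51 on CYAs, -0.36 and -1.25 on YES, and -1.57, -1.81 and -2.39 on CYA. No other pair count of this list was above 0. Limma called none of the 4 in any comparison.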

How the data were processed

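Each deposited scanner file gives spot intensity (processed signal, and raw medians of spot and surroundings) from Agilent Feature Extraction 10.5.1.1, per the file headers. The authors also deposited a log2 value per gene and array. Limma and RMA appear in the submitters' processing notes, but how they were applied is not stated there. That table was used as an alternative.

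Levels are log2 processed signals after subtraction of each array's 75th percentile, averaged over a gene's probes, without outlier spots (0 to 19 per array) and control spots. Genes with a probe well above background on at least 2 arrays were tested (18 left out). limma 3.58.1 in R 4.3.3 fitted medium and day as additive factors to 8 arrays (3 residual and 2.25 prior degrees of freedom), with Benjamini-Hochberg adjustment over 11109 genes, and was tested on simulated data. Precision is limited by the number of arrays. Slide was also fitted as a block and, with statmod 1.5.0, as a random block (consensus correlation 0.785).

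Members and lists were chosen with earlier results of these data known. Genes were described in full where they differed at least 2-fold in every pair, had a product known as background, or were among the 3 widest or narrowest ranges or near background. Others named were chosen after their values were seen. Enzyme classes are background knowledge, and the planned search for protein motifs was not run. Symbols and gene order are from the reference table of strain FGSC A4, assembly ASM1142v1.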

Additional observations from a re-analysis of the deposited data

Results flagged for a closer look

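In 2 synthase genes the same comparison gave at least 2-fold differences of opposite sign in different pairs of arrays. With 1 array per medium and day these differences could not be tested. AN7071 was lower on CYAs than on CYA on day 4, by a difference of -1.65, and higher on day 8, by 3.48. AN8105 was higher on day 10 than on day 4 on CYA, by 1.15, and lower on YES, by -1.07.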

How the results depend on the processing

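All 25 fitted differences of single synthase genes kept their sign in all 390 values under the alternatives, 0 of which passed the adjusted threshold, and 51 moved by over 1.5 times. With normexp and quantile normalization, the synthase genes at least 2-fold different in every pair numbered 0 higher and 0 lower for YES against CYA, 2 higher for YES against CYAs, 1 higher and 1 lower for day 10 against day 4, and 1 higher for day 8 against day 4. In the authors' deposited values they were 3 higher for YES against CYAs, 1 higher for day 10 against day 4 and 2 higher for day 8 against day 4. With the median of probes they were 2 lower for YES against CYAs and 5 higher for day 10 against day 4. For day 8 against day 4 they were 3 higher and 3 lower. With that median AN6444 no longer met the rule as higher on YES than on CYAs, and AN1784 did. The cause was not tested. Limma's 1 called gene between YES and CYAs became 0 with normexp and quantile normalization, the deposited values, slide as a block, slide as a random block, and without both day 8 arrays. Its 1 call between day 8 and day 4 became 0 with the deposited values and with slide as a block. The F test of any day effect called 1 gene with normexp and quantile normalization. Over the settings that leave out 1 array, calls ran from 0 to 158 for YES against CYAs and from 0 to 73 for day 8 against day 4, and were 0 in the other comparisons. Counts of synthase genes ran from 1 to 3 higher for CYAs against CYA, 1 to 9 higher and 1 to 7 lower for YES against CYA, 5 to 9 higher and 1 to 11 lower for YES against CYAs, and 6 to 11 higher and 2 to 10 lower for day 8 against day 4, where fewer pairs have to meet the rule. Against the 95th percentile of negative controls 0 synthase genes lay near background, in place of 3 at the 99th. No paired analysis was possible because the labels give no replicate numbers to use as a block, and the day and medium terms of the fit already match arrays by age and medium. The alternatives without both day 8 arrays, the neighbours, the threshold of 150 and the counts among genes well above background on all arrays were chosen after seeing the data.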

Other observations

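Some synthase genes stood apart on YES day 10 and CYA day 8, and they were chosen after their values were seen. AN9005, a polyketide synthase gene, had levels of 1.31, 1.65 and 1.74 on CYAs days 4, 8 and 10, 0.64 and -2.63 on YES days 4 and 10, and 0.94, -2.16 and 0.92 on CYA days 4, 8 and 10. It was low on YES day 10 and CYA day 8, and CYA day 10 lay at the level of CYA day 4. AN2924, a synthetase-like gene, had 2.24, 2.49 and 3.06 on CYAs, 1.41 and 0.28 on YES, and 2.10, -0.22 and 1.42 on CYA, with the same 2 arrays lowest. AN7489, a polyketide synthase gene, had -2.17, -1.70 and -1.78 on CYAs, -1.17 and -0.26 on YES, and -1.60, -0.47 and -1.66 on CYA. There the same 2 arrays were highest, as they were for AN4827.

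AN10486, a synthetase-like gene, was higher on day 10 than on day 4 by 1.60 on CYAs, 0.81 on YES and 1.52 on CYA, and its 3 probes ranged over 1.50 to 1.94.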
